A study of Mus musculus with 9 samples.

Results

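Clock output transcription factors carry the time signal of the circadian clock to other genes, and some also act on the clock itself. The 8 genes described here are grouped under that name: Dbp, Tef, Hlf, Nfil3, Ciart, Bhlhe40, Bhlhe41 and Rora. Their members on the array were all probe sets that the platform annotation assigns to 1 of these symbols alone, which gave 21 of the 45037 probe sets measured, 3 for Tef, 9 for Rora, 2 each for Dbp, Hlf and Bhlhe41 and 1 for each other gene. All 8 genes were therefore represented, and no filter on dim signals was applied. The genes were chosen from log2 differences between these groups seen in an earlier analysis of the same table, so their group differences are given as a description, without a p-value.

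RNA came from the aorta of female APOE-/- mice on a C57BL/6 background. These mice lack apolipoprotein E and form atherosclerotic lesions. They were 8 weeks old at the start and ate a diet with 0.2% cholesterol and 10% coconut oil for 30 weeks. A single tail-vein injection then delivered HDAd-gE3 (a helper-dependent adenovirus, stripped of viral genes, that expresses human apolipoprotein E3), HDAd-0 (the empty vector) or PBS (phosphate-buffered saline, the vehicle), and the mice were killed 10 days later. Each group had 3 arrays, and each array measured 3 pooled aortas, dissected between sinus and arch. All groups shared the knockout and the diet, so no group shows a healthy aorta. The labels give no hour of killing, and the running numbers of the samples do not interleave between the groups, so the order of handling and the group cannot be told apart. Any p-value below measures the spread between pools, and 3 arrays a group limit its precision.

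In the clock, the proteins CLOCK and BMAL1 (encoded by Arntl) bind E-box sequences and switch on the Per, Cry and Nr1d genes, whose products feed back on them. The same E-box drive reaches output factors such as DBP, which bind D-box sequences in further genes, while NFIL3 represses from D-boxes and RORA activates from ROR elements that the NR1D repressors also occupy. In arteries this system gives daily rhythms to vascular tone and to leukocyte recruitment.

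Dbp and Ciart were higher in both vector groups than in PBS, by about the same amount in each. Nfil3 was lower in HDAd-0 than in PBS, with HDAd-gE3 between them. Hlf varied most in HDAd-0. Bhlhe40 differed by less than 0.10 on the log2 scale in every comparison, and the 5 brightest Rora probe sets by at most 0.24 in size. Between HDAd-gE3 and HDAd-0, Dbp and Ciart differed by at most 0.03 in size.

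Promoter sequence is shown for the genes on which this pattern rests: Dbp and Ciart, which had similar profiles over the arrays, and Nfil3, which ran the other way. The sequences are from RefSeq, build GRCm38.p6, and give the 250 bases before the annotated start, 5′ to 3′ on the strand of the gene. Dbp lies at chr7:45704997-45705246 on the plus strand, Ciart at chr3:95882229-95882478 on the minus strand and Nfil3 at chr13:52981040-52981289 on the minus strand. Capitals mark matches to the E-box word CACGTG in Ciart and, in Nfil3, the match to the ROR core word AGGTCA, which stands there on the opposite strand.
Dbp promoter: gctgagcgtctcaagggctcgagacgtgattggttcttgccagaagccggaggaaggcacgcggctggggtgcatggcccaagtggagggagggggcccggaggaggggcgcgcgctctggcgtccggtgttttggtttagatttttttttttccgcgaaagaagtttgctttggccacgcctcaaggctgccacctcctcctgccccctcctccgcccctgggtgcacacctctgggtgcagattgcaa
Ciart promoter: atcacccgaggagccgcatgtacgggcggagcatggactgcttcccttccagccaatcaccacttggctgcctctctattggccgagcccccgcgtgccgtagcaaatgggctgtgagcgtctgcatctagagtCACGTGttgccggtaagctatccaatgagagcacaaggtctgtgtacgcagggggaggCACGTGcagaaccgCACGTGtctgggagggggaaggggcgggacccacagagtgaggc
Nfil3 promoter: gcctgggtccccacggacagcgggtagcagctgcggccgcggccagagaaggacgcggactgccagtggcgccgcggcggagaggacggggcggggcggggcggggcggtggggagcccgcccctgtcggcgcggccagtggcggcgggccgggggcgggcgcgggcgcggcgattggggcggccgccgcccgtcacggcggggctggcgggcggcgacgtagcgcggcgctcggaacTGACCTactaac

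The windows searched ran from 250 bases before to 50 bases after the start, on both strands, and were found for 7 of the 8 genes, with 2 starts for Tef and so 8 windows in all. Bhlhe40 had no window. CACGTG occurred 6 times in 4 windows of 3 genes, Tef, Ciart and Bhlhe41, and in 7.17% of 32544 mouse promoter windows of the same length. Ciart held 3 of these matches, with first bases at -116, -58 and -44 relative to the start. The other matches are shown with 12 bases on either side, for Tef at chr15:81802534-81802563 and chr15:81811264-81811293 (plus strand) and for Bhlhe41 at chr6:145865556-145865585 (minus strand), with the word in capitals.
Tef, the first start: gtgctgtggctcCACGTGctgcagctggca
Tef, the second start: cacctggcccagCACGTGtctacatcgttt
Bhlhe41: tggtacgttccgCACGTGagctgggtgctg

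AGGTCA occurred in the Nfil3 window alone among the members, with its first base at -12, and in 16.2% of all windows. It was there part of the longer word TAGGTCA, which occurred in 2.61% of all windows. Neither the variant E-box CACGTT (4.71% of all windows) nor the D-box words TTATGTAA and TTACGTAA (1.05%) occurred in any member window. A match describes letters only, and the Dbp window held none of the words searched.

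**Figure D1:**
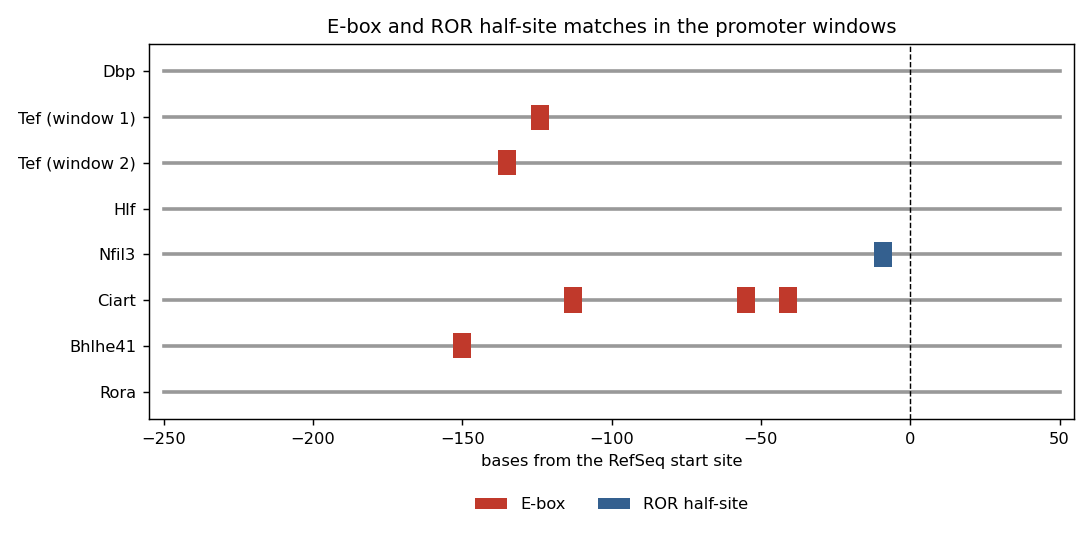
Matches to the E-box word and the ROR core word (keyed as ROR half-site) in the 8 promoter windows of 7 member genes, by distance in bases from the RefSeq start site (x axis), 1 row per window. Ciart holds 3 E-box matches, Tef 1 at each of 2 starts and Bhlhe41 1, and Nfil3 holds the ROR core word at -12.

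The deposited log2 signals spanned 1.98 to 14.7, with array medians of 6.67 to 6.77 and a lowest correlation between arrays of 0.991. The Apoe probe set read 7.05, 7.08 and 6.72 in HDAd-gE3, 7.15, 7.16 and 7.64 in HDAd-0 and 7.05, 6.79 and 6.80 in PBS, with HDAd-0 above both other groups without overlap. All mice were knockouts and the vector gene is human, so this probe set does not check the labels. Smooth muscle markers averaged 12.61 to 12.82 over the arrays. Macrophage markers averaged 12.03 to 12.08 in HDAd-gE3, 12.23 to 12.31 in HDAd-0 and 12.15 to 12.22 in PBS, and in HDAd-gE3 7 of 8 were lower than in PBS and 5 of 8 lower than in HDAd-0 without overlap. Arrays also differed in markers of other tissues. The 8 cardiac muscle markers averaged 12.23 to 13.29 in HDAd-gE3, 11.79 to 12.47 in HDAd-0 and 12.84 to 12.95 in PBS, and all 8 were lower in HDAd-0 than in PBS without overlap. The 7 measured liver markers averaged 7.79 to 8.57 in HDAd-gE3, 8.26 to 9.77 in HDAd-0 and 7.47 to 7.90 in PBS, with 6 of 7 higher in HDAd-0 than in PBS without overlap. Endothelial markers averaged 10.35 to 10.51 in HDAd-gE3, 10.55 to 10.84 in HDAd-0 and 10.21 to 10.31 in PBS, with 6 of 8 higher in HDAd-0 than in PBS without overlap. Neutrophil markers averaged 9.57 to 11.33 in HDAd-gE3, 8.32 to 9.06 in HDAd-0 and 8.60 to 8.89 in PBS, with 7 of 7 higher in HDAd-gE3 than in PBS without overlap. The 6 measured erythroid markers averaged 7.51 to 8.96 in HDAd-gE3, 7.03 to 7.62 in HDAd-0 and 6.46 to 6.61 in PBS. Without overlap, 4 were higher and 1 lower in HDAd-gE3 than in PBS, and 3 were higher in HDAd-0 than in PBS. The 3′ minus 5′ signal of control probe sets, a sign of RNA quality, ran from 0.673 to 0.809 in HDAd-gE3, 0.760 to 1.08 in HDAd-0 and 0.785 to 0.917 in PBS. HDAd-gE3 replicate 4 stood apart with the highest neutrophil and erythroid levels (11.33 and 8.96), and HDAd-0 replicate 5 with the highest skeletal muscle and liver levels (8.23 and 9.77). The part of these in the differences below was not tested.

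Dbp encodes the PAR bZIP activator that is among the strongest rhythmic transcripts of many organs. Its brighter probe set, 1438211_s_at, read 12.69, 12.59 and 12.69 in HDAd-gE3, 12.75, 12.56 and 12.70 in HDAd-0 and 12.23, 12.15 and 12.15 in PBS (log2 signal). Every vector array lay above every PBS array, and the vector groups overlapped. The means were 12.66 ± 0.060 in HDAd-gE3, 12.67 ± 0.099 in HDAd-0 and 12.18 ± 0.041 in PBS (SD, n = 3 each). HDAd-gE3 exceeded PBS by 0.48 ± 0.073 (log2 difference ± SE of the limma fit), a 1.40-fold difference, and HDAd-0 exceeded PBS by 0.49 ± 0.073, or 1.41-fold. In bulk RNA, a change in the number of cells of a type and a change in RNA per cell cannot be told apart.

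The other Dbp probe set, 1418174_at, showed the larger difference. It read 10.92, 10.71 and 10.86 in HDAd-gE3, 10.79, 10.87 and 10.92 in HDAd-0 and 10.11, 9.99 and 10.04 in PBS. Again no vector array reached down to the PBS arrays. HDAd-0 exceeded PBS by 0.81 ± 0.077 (1.76-fold) and HDAd-gE3 exceeded PBS by 0.78 ± 0.077 (1.72-fold), while HDAd-gE3 minus HDAd-0 was -0.03 ± 0.077. Of all probe sets, 1.07% differed more in size between HDAd-0 and PBS. The genes were chosen from such differences, so nothing is read from this rank. The comparisons with PBS share the PBS arrays, so their likeness is not a second finding.

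Ciart encodes a repressor of CLOCK and BMAL1 and is itself rhythmic. Its probe set, 1435188_at, read 7.79, 7.56 and 7.67 in HDAd-gE3, 7.56, 7.70 and 7.76 in HDAd-0 and 7.31, 7.29 and 7.22 in PBS. As for Dbp, all 6 vector arrays were above all PBS arrays and the vector groups overlapped. The means were 7.68 ± 0.12 in HDAd-gE3, 7.67 ± 0.10 in HDAd-0 and 7.27 ± 0.046 in PBS (SD, n = 3 each). Each vector group exceeded PBS by 0.40 ± 0.083 (1.32-fold). The erythroid and endothelial marker averages were likewise higher on every vector array than on every PBS array. All 8 endothelial markers were higher in each vector group than in PBS. The part of these markers in the Dbp and Ciart differences was not tested.

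**Figure D2:**
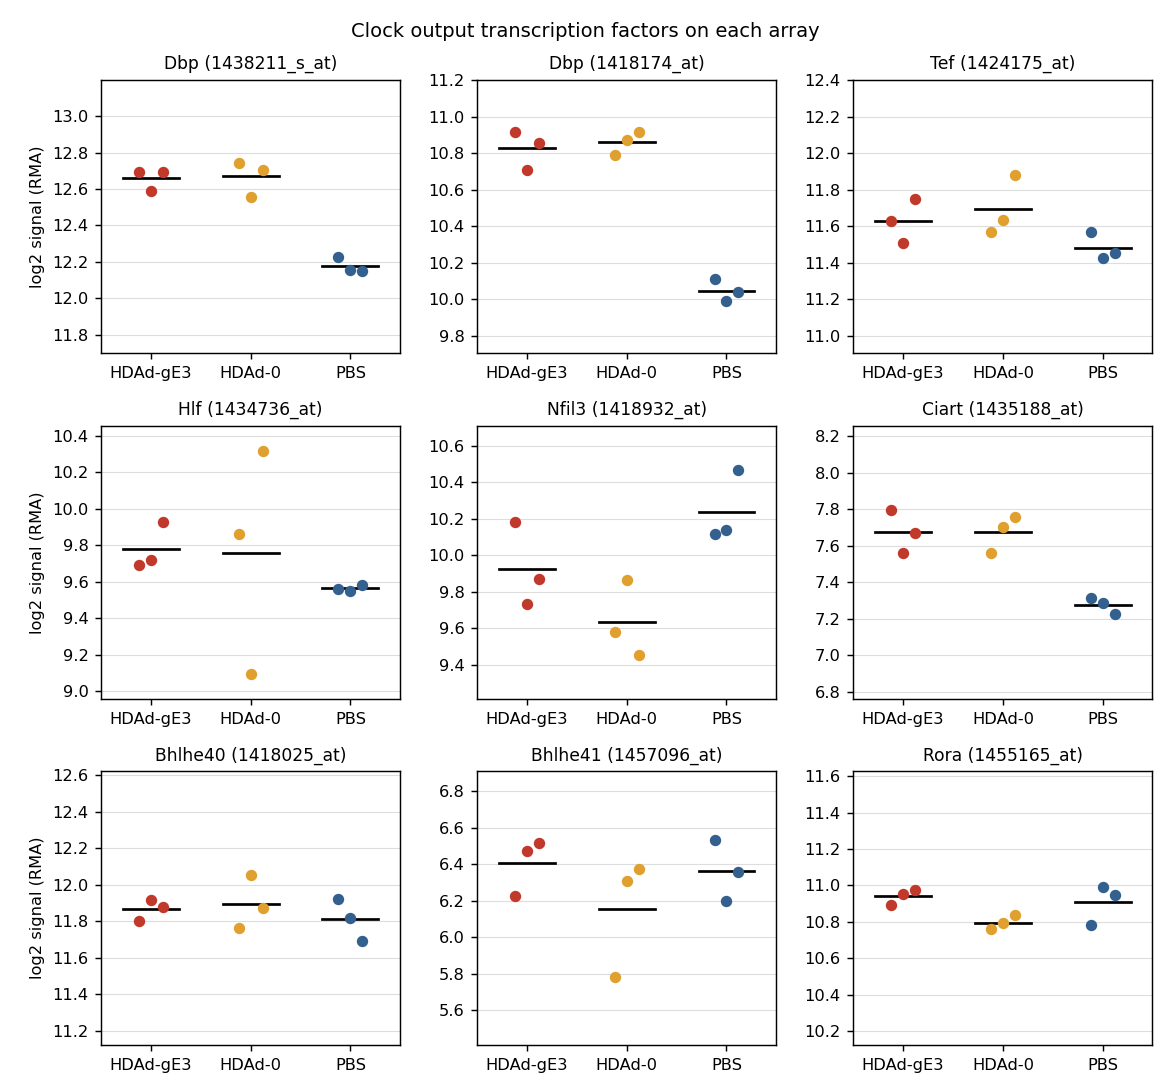
Log2 signal (y axis) of the member genes, through their brightest probe sets, on every array, in the groups HDAd-gE3, HDAd-0 and PBS from left to right, 1 point per array with a line at the group mean; Dbp has a panel for each of its probe sets, and every panel covers the same height. Dbp and Ciart are higher in all 6 vector arrays than in the PBS arrays, and Hlf spreads over 1.22 log2 units within HDAd-0.

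Tef encodes a second PAR bZIP activator, and its 3 probe sets differed in how they separated the groups. The brightest, 1424175_at, read 11.63, 11.51 and 11.75 in HDAd-gE3, 11.57, 11.64 and 11.88 in HDAd-0 and 11.57, 11.43 and 11.45 in PBS, and all groups overlapped. HDAd-gE3 minus PBS was 0.15 ± 0.10 and HDAd-0 minus PBS was 0.21 ± 0.10. HDAd-gE3 minus PBS was 0.09 when HDAd-gE3 replicate 4 was left out and 0.08 with the 3′ minus 5′ signal as a covariate. Leaving out HDAd-0 replicate 5 gave 0.12 for HDAd-0 minus PBS. Probe set 1438033_at read 7.76, 7.75 and 8.09 in HDAd-gE3, 7.07, 7.80 and 7.54 in HDAd-0 and 7.54, 7.04 and 7.22 in PBS. There only HDAd-gE3 stood clear of PBS, by 0.60 ± 0.20 (1.52-fold), and HDAd-0 overlapped both other groups. The dimmest, 1450184_s_at, read between 5.08 and 5.41 on all arrays, and its differences were 0.10 or less.

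Hlf encodes the third PAR bZIP activator. Its brighter probe set, 1434736_at, read 9.69, 9.72 and 9.93 in HDAd-gE3, 9.86, 9.09 and 10.32 in HDAd-0 and 9.56, 9.55 and 9.58 in PBS. Replicates 4 and 5 of HDAd-0 were the lowest and the highest of all 9 arrays, and the SD was 0.13 in HDAd-gE3, 0.62 in HDAd-0 and 0.017 in PBS. HDAd-0 minus PBS was therefore 0.19 ± 0.25, and it was 0.53 without HDAd-0 replicate 4 and -0.09 without HDAd-0 replicate 5. HDAd-gE3 minus HDAd-0 was 0.02 ± 0.25, and without those arrays in turn it was -0.31 and 0.30.

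Probe set 1434735_at of Hlf had the same extremes, with 8.94, 8.74 and 8.92 in HDAd-gE3, 8.89, 8.46 and 9.04 in HDAd-0 and 8.48, 8.53 and 8.65 in PBS. HDAd-gE3 exceeded PBS without overlap at both Hlf probe sets, by 0.22 ± 0.25 and 0.32 ± 0.14. With the 3′ minus 5′ signal as a covariate these were -0.10 and 0.19, and without HDAd-gE3 replicate 4 the first was 0.14.

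Nfil3 encodes a bZIP repressor that competes with the PAR bZIP activators for D-boxes and also acts in immune cells. Its probe set, 1418932_at, read 10.18, 9.73 and 9.87 in HDAd-gE3, 9.58, 9.86 and 9.45 in HDAd-0 and 10.11, 10.14 and 10.47 in PBS. All HDAd-0 arrays were below all PBS arrays, whereas HDAd-gE3 overlapped both other groups. The means were 9.93 ± 0.23 in HDAd-gE3, 9.63 ± 0.21 in HDAd-0 and 10.24 ± 0.20 in PBS (SD, n = 3 each). HDAd-0 minus PBS was -0.61 ± 0.15 (1.52-fold lower), HDAd-gE3 minus PBS was -0.31 ± 0.15, and HDAd-gE3 minus HDAd-0 was 0.29 ± 0.15. Leaving out single arrays gave -0.72 to -0.49 for HDAd-0 minus PBS and -0.44 to -0.20 for HDAd-gE3 minus PBS, with -0.20 without PBS replicate 4. It gave 0.17 to 0.41 for HDAd-gE3 minus HDAd-0, with 0.17 without HDAd-gE3 replicate 2. With the 3′ minus 5′ signal as a covariate HDAd-gE3 minus PBS was -0.16 and HDAd-gE3 minus HDAd-0 was 0.53. The cardiac marker average was also lower in HDAd-0, as given above, and its part in the Nfil3 difference was not tested.

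Bhlhe40 and Bhlhe41 encode basic helix-loop-helix repressors that bind E-boxes. Bhlhe40 (1418025_at) read 11.80, 11.92 and 11.88 in HDAd-gE3, 11.76, 12.05 and 11.87 in HDAd-0 and 11.92, 11.82 and 11.69 in PBS. The groups overlapped in every pair, and the differences were -0.03 (HDAd-gE3 minus HDAd-0), 0.09 (HDAd-0 minus PBS) and 0.05 (HDAd-gE3 minus PBS), each ± 0.094. Bhlhe41 was measured by probe sets that disagreed.

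At 1457096_at Bhlhe41 read 6.23, 6.47 and 6.51 in HDAd-gE3, 5.78, 6.31 and 6.38 in HDAd-0 and 6.53, 6.20 and 6.36 in PBS, with all groups overlapping. At 1421099_at it read 5.39, 5.18 and 5.37 in HDAd-gE3, 5.62, 5.44 and 5.47 in HDAd-0 and 5.44, 5.56 and 5.69 in PBS, and HDAd-gE3 was below both other groups without overlap. HDAd-gE3 minus HDAd-0 was thus 0.25 ± 0.16 at the brighter probe set and -0.20 ± 0.095 at the dimmer, so no direction is given for that comparison, and without HDAd-0 replicate 3 the first was 0.06. HDAd-gE3 minus PBS also differed in sign, at 0.04 and -0.25. HDAd-0 minus PBS was -0.21 and -0.05, and the first was -0.02 without HDAd-0 replicate 3.

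Rora encodes a nuclear receptor that activates Arntl and other genes through ROR elements. Its 9 probe sets had mean levels from 4.03 to 10.88, and they did not agree in sign in any comparison. The brightest, 1455165_at, read 10.89, 10.95 and 10.98 in HDAd-gE3, 10.76, 10.79 and 10.84 in HDAd-0 and 10.79, 10.99 and 10.95 in PBS. HDAd-gE3 lay above HDAd-0 there by 0.14 ± 0.073 without overlap, while PBS overlapped both. At 1424034_at the arrays read 9.99, 9.99 and 10.01 in HDAd-gE3, 9.87, 9.93 and 9.89 in HDAd-0 and 9.94, 9.80 and 9.89 in PBS. HDAd-gE3 again lay above HDAd-0, by 0.10 ± 0.063, and there also above PBS, by 0.12 ± 0.063.

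The other 7 Rora probe sets overlapped between groups in every comparison. The largest difference among them was 0.35 ± 0.16 for HDAd-0 minus PBS at 1441085_at, a dim probe set with a mean level of 5.06, and it was 0.20 without HDAd-0 replicate 5. At 1458129_at, HDAd-0 alone spread from 5.82 to 7.11. At 1424035_at the arrays read 4.39, 4.54 and 3.92 in HDAd-gE3 and 4.46, 4.40 and 4.72 in HDAd-0, while all 3 PBS arrays held the same deposited value, 4.45, so the spread in PBS is not informative there.

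**Figure D3:**
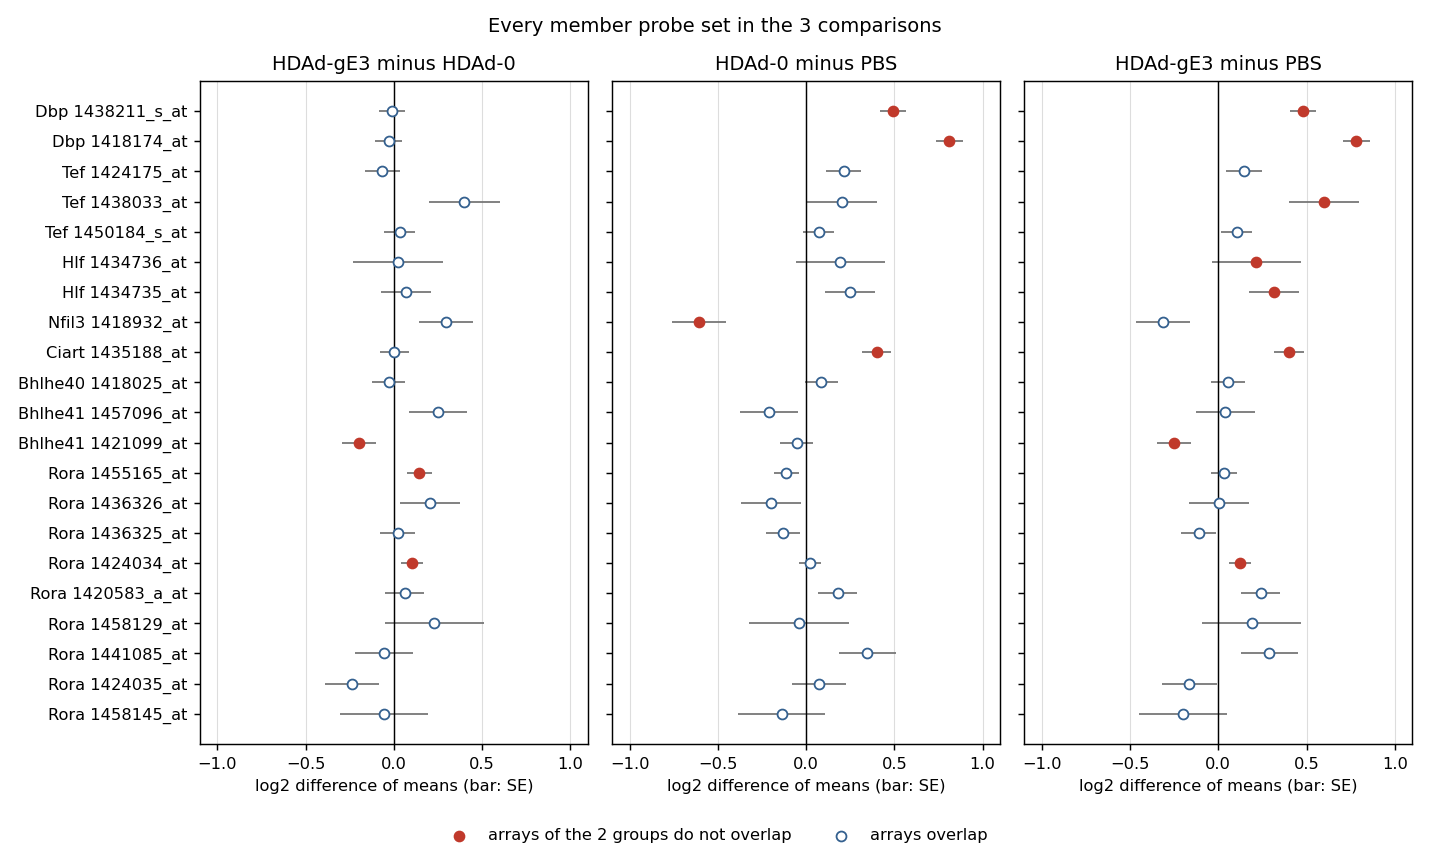
Difference of group means (x axis, log2) with its SE for all 21 member probe sets (rows), with 1 panel for each of HDAd-gE3 minus HDAd-0, HDAd-0 minus PBS and HDAd-gE3 minus PBS. Filled points mark groups whose arrays do not overlap and open points those that do. Dbp reaches 0.81 and Nfil3 -0.61 in HDAd-0 minus PBS.

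Across all members, the limma fit with Benjamini-Hochberg adjustment at 0.05 called 0 of 21 probe sets in HDAd-gE3 against HDAd-0, where it called 0% of all 45037. It called 1 in HDAd-0 against PBS, Dbp 1418174_at, where it called 0.00888% of all (4 probe sets), and 0 in HDAd-gE3 against PBS, where it called 0.00222% of all (1 probe set). At an unadjusted p under 0.05 the member counts were 0, 4 and 5 in the same order of comparisons, against 12.8%, 12.3% and 11% of all probe sets. Since the members were proposed from these contrasts, nothing is read from these counts, from the call on Dbp or from the settings that keep it. The call on Dbp was lost when any of 8 of the 9 arrays was left out and kept without HDAd-0 replicate 4, while the difference ran from 0.78 to 0.85 over these fits. It was also lost with array weights, with only the compared groups and with the 3′ minus 5′ covariate. Both Dbp probe sets were called there without dim probe sets, with an intensity trend and without HDAd-0 replicate 4. In HDAd-gE3 against PBS both were called without dim probe sets, with array weights and with an intensity trend, and 1418174_at alone without HDAd-0 replicate 3.

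Arrays of the groups did not overlap at 3 member probe sets in HDAd-gE3 against HDAd-0 (2 higher and 1 lower), against 15.9% of all probe sets (6.3% higher and 9.56% lower). They did not overlap at 4 in HDAd-0 against PBS (3 higher and 1 lower), against 16.9% of all (9.43% higher and 7.46% lower), and at 8 in HDAd-gE3 against PBS (7 higher and 1 lower), against 20.8% of all (10.6% higher and 10.3% lower). Groups with fewer arrays overlap less easily, and no share over all probe sets was computed for the counts with arrays left out. Nothing is therefore read from a rise in those counts. Without HDAd-gE3 replicate 3 the first count (HDAd-gE3 against HDAd-0) was 6, and without HDAd-0 replicate 4 it was 7. The second count was 8 without HDAd-0 replicate 4 and 8 without PBS replicate 1. With HDAd-gE3 replicate 4 and HDAd-0 replicate 5 both left out, the 3 counts were 4, 5 and 10, HDAd-0 minus PBS was 0.78 for Dbp 1418174_at, 0.36 for Ciart and -0.52 for Nfil3, and HDAd-gE3 minus PBS was 0.77, 0.40 and -0.28. A log2 difference of 0.5 or more in size occurred at 0, 2 and 2 member probe sets, against 4.62%, 4.39% and 1.91% of all. The median difference over the members was 0.02, 0.07 and 0.12 in these comparisons, with -0.02, 0.01 and -0.00 over all probe sets.

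The members also varied together to different degrees over the 9 arrays. Dbp and Ciart correlated at 0.91 (Pearson, brightest probe sets), Dbp and Tef at 0.69 and Dbp and Nfil3 at -0.74. After subtraction of the group means these were 0.15, 0.41 and -0.28, so the likeness of Dbp and Ciart lay mainly between the groups. Within groups Dbp ran closest to Hlf, at 0.70. The arrays share their groups and 9 arrays are few, so these values only describe the profiles. The members also differed in how evenly they read within groups. The pooled SD within groups was 0.07 for Dbp 1438211_s_at, larger than in 13.9% of all probe sets, and 0.37 for Hlf 1434736_at, larger than in 94.8%. For Ciart it was 0.09 (25.2%) and for Nfil3 0.21 (77.9%).

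Over all genes with a named probe set, the profiles most like Dbp over the 9 arrays were those of Sphk2, Tmem222 and Ccdc85b (each r = 0.98), Thtpa (0.97) and Btbd2 (0.95), each through its brightest probe set. Sphk2 encodes a sphingosine kinase and Thtpa a thiamine triphosphatase. A dimmer Sphk2 probe set gave -0.54, so the likeness holds for 1 of its probe sets. The most opposite were Pde7a (-0.97), Clock, Lin7a and Gpr176 (each -0.96) and Sdf2l1 (-0.95), and dimmer probe sets of Pde7a, Clock and Lin7a gave values up to 0.25, 0.19 and 0.23. Of these 10 genes, Clock alone was also among the 100 most like or most opposite after subtraction of group means, at -0.90.

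For Nfil3 the most like were Mtx3 and Xirp1 (each 0.96), Abra (0.95), Chd6 and Nexn (each 0.94), and Xirp1, Abra and Nexn encode proteins of striated muscle. Dimmer probe sets of Mtx3 gave -0.04 and 0.24 and that of Chd6 -0.67. The most opposite were F11r, Eif4b, Rac2, Sox18 and Mcpt4 (each -0.95), of which Sox18 encodes an endothelial transcription factor and Rac2 a leukocyte GTPase. Of these 10 genes, 5 were among the 100 most like or most opposite within groups, Xirp1 at 0.97 and Sox18 at -0.96. These correlations describe 9 arrays that share their groups.

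The core clock genes, each through its brightest probe set, ran as follows beside the members. The limma test called 0 of the 4 activator and 0 of the 7 repressor genes in any comparison. At an unadjusted p under 0.05 in HDAd-0 against PBS, 3 activators were lower, 3 repressors higher and 1 repressor lower. There the share over all probe sets was 12.3%. In HDAd-gE3 against PBS these counts were 2, 4 and 1, against 11% of all. In HDAd-gE3 against HDAd-0 they were 0, 0 and 0, against 12.8% of all. Clock, Arntl and Npas2 were lower in both vector groups than in PBS without overlap. Arntl, the obligate partner of CLOCK, read 8.00, 8.38 and 8.33 in HDAd-gE3, 8.13, 8.16 and 7.46 in HDAd-0 and 8.91, 8.97 and 9.005 in PBS. HDAd-0 minus PBS was -1.04 ± 0.18 (limma adjusted p = 0.141) and HDAd-gE3 minus PBS was -0.73 ± 0.18 (limma adjusted p = 0.241). Clock itself was lower by less, with HDAd-0 minus PBS at -0.31 and HDAd-gE3 minus PBS at -0.24, and the dimmer probe set 1435775_at gave -0.24 and -0.18. The other Clock probe sets, 1418660_at and 1439314_at, gave -0.07 and -0.18 for HDAd-0 minus PBS but 0.14 and 0.05 for HDAd-gE3 minus PBS. Npas2, a paralogue of Clock, gave -0.92 ± 0.24 and -0.48 ± 0.24 in the same comparisons, and the first was -0.60 without HDAd-0 replicate 5. The dimmer Npas2 probe set 1421036_at, with a mean level of 6.26, gave -0.12 and -0.18, both with overlap. Arntl2 gave -0.15 and -0.02.

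Among the repressors, Nr1d1, Nr1d2 and Cry2 were higher in each vector group than in PBS without overlap of the arrays, and Cry1 was lower in each. Per1, an inhibitor of CLOCK and BMAL1, gave 0.63 ± 0.17 for HDAd-0 minus PBS and 0.54 ± 0.17 for HDAd-gE3 minus PBS. Nr1d1, which represses Arntl and Nfil3 through ROR elements, gave 0.60 ± 0.18 and 0.78 ± 0.18 (limma adjusted p = 0.268 and 0.208). Its close relative Nr1d2 gave 0.23 and 0.20, each ± 0.064. The dimmer Nr1d2 probe set 1416959_at gave 0.62 for HDAd-0 minus PBS, with overlap, and 0.63 for HDAd-gE3 minus PBS, without overlap. Cry1, a strong inhibitor of CLOCK and BMAL1, gave -0.52 ± 0.13 and -0.75 ± 0.13 (limma adjusted p = 0.202 and 0.121). Per2 gave -0.11 and -0.15, Per3 0.11 and 0.13 and Cry2 0.04 and 0.16. The dimmer Per2 probe set 1417603_at gave 0.38 and 0.36, both without overlap, and 1457350_at gave -0.02 and 0.08. Dimmer Per3 probe sets 1442243_at, 1441445_at and 1458176_at gave 0.32, 0.61 and 0.59 in HDAd-gE3 minus PBS, without overlap. The Per3 probe sets 1421086_at and 1460662_at gave -0.21 and -0.07 there, with overlap. HDAd-0 replicate 5 stood apart here, as the lowest vector array in Arntl, in Npas2 (8.43) and in Nr1d1 (9.93, against 10.61 and 10.73 in the other HDAd-0 arrays), and the highest in Cry1 (10.23).

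**Figure D4:**
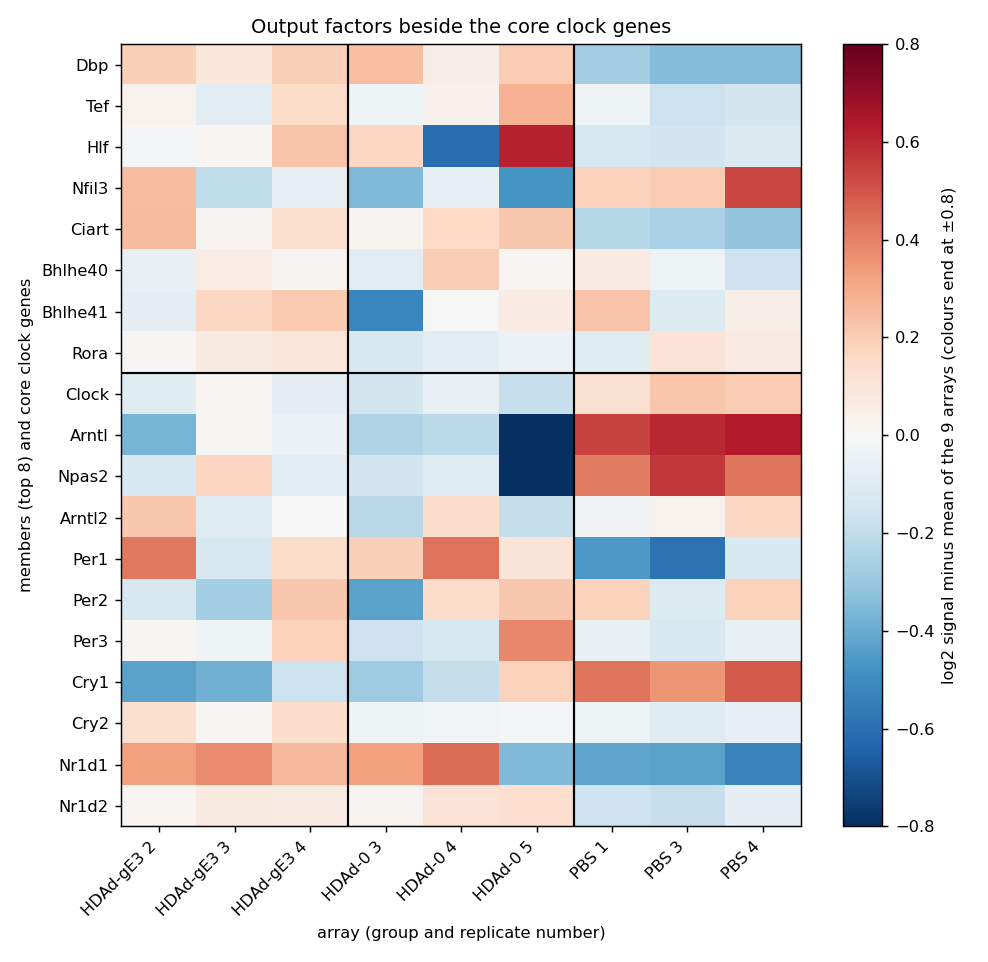
Log2 signal minus its mean over the 9 arrays (colour) for the output factors and the core clock genes (rows) on each array (columns, HDAd-gE3, HDAd-0 and PBS from left to right). Arntl, Npas2, Clock and Cry1 are high in the PBS arrays where Dbp, Ciart, Per1 and Nr1d1 are low, and HDAd-0 replicate 5 is lowest in Arntl and Npas2.

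Genes known to respond to the clock or to the output factors were examined through lists chosen with earlier results of these data known. The limma test called 0 of the 10 measured rhythmic output genes, 7 measured PAR bZIP target genes, 12 glucocorticoid-responsive genes, 12 hypoxia-inducible genes, 8 measured clock kinase and ubiquitin ligase genes or the 1 measured other ROR receptor in any comparison. At an unadjusted p under 0.05 in HDAd-0 against PBS, 2 rhythmic output genes were higher and 2 lower, and 0 PAR bZIP targets differed. There 3 glucocorticoid-responsive genes were lower, and 1 hypoxia-inducible and 1 kinase-list gene were higher, against 12.3% of all probe sets. In each other comparison 1 rhythmic output gene was higher and 2 lower, and 2 PAR bZIP targets were lower. In HDAd-gE3 against HDAd-0, 1 glucocorticoid-responsive and 1 kinase-list gene were lower and 1 hypoxia-inducible gene higher, against 12.8% of all. In HDAd-gE3 against PBS, 1 glucocorticoid-responsive gene was higher and 3 lower, and 2 hypoxia-inducible genes were higher, against 11% of all. The median difference of the PAR bZIP targets was -0.09, -0.03 and -0.11 in HDAd-gE3 minus HDAd-0, HDAd-0 minus PBS and HDAd-gE3 minus PBS, against -0.04, 0.02 and -0.02 over all genes.

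Cirbp, which encodes a cold-inducible RNA-binding protein, was higher on all vector arrays than on all PBS arrays, with 9.33, 9.43 and 9.21 in HDAd-gE3, 9.62, 9.15 and 9.34 in HDAd-0 and 8.59, 8.73 and 8.74 in PBS. HDAd-0 exceeded PBS by 0.68 ± 0.12 (limma adjusted p = 0.142). Lonrf3 ran the other way, at 8.96, 8.69 and 8.88 in HDAd-gE3, 9.23, 9.26 and 9.12 in HDAd-0 and 9.52, 9.53 and 9.61 in PBS, and HDAd-gE3 minus PBS was -0.71 ± 0.084 (limma adjusted p = 0.0515). Nampt, the rate-limiting enzyme of NAD salvage, gave -0.28 and Tspan4 0.11 in HDAd-gE3 minus PBS. Tspan4 gave 0.24 in HDAd-0 minus PBS, where the arrays overlapped. Cyp2b10, a cytochrome P450 that PAR bZIP factors control in liver, read 7.47, 7.29 and 6.37 in HDAd-gE3, 9.55, 8.58 and 7.12 in HDAd-0 and 9.57, 9.43 and 9.67 in PBS. HDAd-gE3 minus PBS was -2.52 ± 0.54 (limma adjusted p = 0.180), opposite in sign to Dbp. This probe set is of a type that may also detect related transcripts, as is the brighter Dbp probe set, 1438211_s_at. Pdxk, the enzyme that makes active vitamin B6, gave -0.18 in HDAd-gE3 minus PBS and -0.26 in HDAd-gE3 minus HDAd-0, both without overlap. Ces2a, with dim group means of 4.15 to 4.31, exceeded PBS without overlap by 0.16 in HDAd-0 and 0.10 in HDAd-gE3. Of the 7 measured PAR bZIP targets, 3 were higher and 4 lower in HDAd-gE3 than in PBS.

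Fkbp5, a glucocorticoid-induced co-chaperone, read 9.79, 9.70 and 9.74 in HDAd-gE3, 9.99, 10.50 and 9.80 in HDAd-0 and 10.68, 10.54 and 10.56 in PBS, and HDAd-gE3 minus PBS was -0.85 ± 0.16 (limma adjusted p = 0.138). Zbtb16, Mt1 and Cdkn1a gave -0.38, -0.33 and -0.14 in that comparison, and Cdkn1a gave -0.26 in HDAd-0 minus PBS. Of the 12 glucocorticoid-responsive genes, 7 were lower and 5 higher in HDAd-gE3 than in PBS, among them, named after their values were seen, Pdk4 at 0.22 and Dusp1 at 0.18, both without overlap. Of the 12 hypoxia-inducible genes, 4 were higher and 8 lower in HDAd-gE3 than in PBS, with Adm at 0.22 and Ankrd37 at 0.35. Adm gave 0.32 in HDAd-0 minus PBS. Rorb gave -0.25 in HDAd-gE3 minus PBS. Timeless, from the kinase list, was lower in HDAd-gE3 than in HDAd-0 by a difference of -0.34 ± 0.092 (limma adjusted p = 0.246) and higher in HDAd-0 than in PBS by 0.30 ± 0.092 (limma adjusted p = 0.270), both without overlap, and HDAd-gE3 minus PBS was -0.03 ± 0.092.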

How the data were processed

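RNA of 9 pools was labelled with a biotin kit and hybridised to Affymetrix mouse arrays. The authors deposited 1 table of log2 signals, which per the submitters' processing notes came from RMA, of a version not given in the sources used here. Their range, up to 14.7, showed the scale to be log2. Because RMA equalises the distributions of the arrays, a shift shared by most genes would not show. Gene names came from the platform annotation. Of 45101 probe sets, 64 controls were left out, and of the 45037 tested 34945 had 1 gene, 932 several and 9160 none. There were 0 per-sample columns outside these samples.

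Linear models were fitted to all 45037 probe sets and all 9 arrays (lmFit and eBayes, limma 3.58.1 in R 4.3.3), with 1 common estimate of spread and 6 residual degrees of freedom. P was two-sided and adjusted by the Benjamini-Hochberg method over all probe sets, and 0.05 was the threshold. With 3 arrays on each side, the smallest exact permutation p is 0.1. Probe set suffixes with s mark probes that may match several transcripts. Figures were drawn with matplotlib 3.10.9. Promoter windows and names are from RefSeq.

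The members and all lists (160 genes, 148 measured, 1 through a synonym) were chosen with earlier results of these data known. The text names all members, all core clock genes, up to 4 genes with the smallest p in each other list, and the 5 genes most like and the 5 most opposite to Dbp and to Nfil3, unnamed clones left out. The procedure was tested on simulated data (5 simulations of HDAd-gE3 against HDAd-0, each with 200 of 45037 probe sets changed). It called 78.4% of those changed by a log2 size of 1 and 96.6% at 2, and 5.17% of calls were false. The simulated noise was drawn separately for each probe set, without effects shared by the probe sets of an array. In every comparison 0 member probe sets reached a log2 size of 1, so these rates do not describe the members. Alternatives were another centring, a filter on dim probe sets, 1 probe set per gene, weights for the arrays, an intensity trend, a replicate block, only the compared groups, an RNA quality covariate, another threshold and leaving out each array. Leaving out HDAd-gE3 replicate 4 with HDAd-0 replicate 5, leaving out single arrays for the list genes, and the counts of groups that do not overlap, were chosen after seeing the data.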

Additional observations from a re-analysis of the deposited data

How the results depend on the processing

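Of 63 member differences (21 probe sets in 3 comparisons), 32 kept their sign in every alternative run, among them both Dbp probe sets, Ciart and Nfil3 in the comparisons of HDAd-0 with PBS and of HDAd-gE3 with PBS. Of 1074 alternative values, 999 had the sign of the main value and 14 moved by more than 1 SD. Several alternatives cannot change a difference of group means, so part of this likeness is built in. These are the dim filter, 1 probe set per gene, the intensity trend and only the compared groups. Leaving out an array of the group not compared is another. The counts of kept signs are therefore no measure of stability. The number of all probe sets called moved more. In HDAd-gE3 against HDAd-0 it was 0, with 3 without dim probe sets and 1 with 1 probe set per gene, and 0 to 402 when single arrays were left out (402 without HDAd-0 replicate 4). In HDAd-0 against PBS it was 4, with 35 without dim probe sets, 12 with 1 probe set per gene, 23 with an intensity trend, 0 with only the compared groups, 0 with the 3′ minus 5′ covariate, 47 at an adjusted p under 0.1, 1 when HDAd-gE3 replicate 4 was left out together with HDAd-0 replicate 5, and 0 to 542 when single arrays were left out (542 without HDAd-0 replicate 4). In HDAd-gE3 against PBS it was 1, with 74, 23, 86, 12, 0, 70 and 0 under the same settings in that order, 279 with array weights, and 0 to 12 when single arrays were left out. With the replicate number as a block the counts were 0, 0 and 0, so both Dbp probe sets were uncalled. For Nfil3 HDAd-gE3 minus HDAd-0 was then 0.08 and HDAd-gE3 minus PBS -0.50. The numbers 1, 2 and 5 occur once each, so the block fits those arrays exactly and leaves fewer than 6 residual degrees of freedom. The groups share only the numbers 3 and 4, whose deviations correlated between 0.01 and 0.13, so the numbers were not taken to pair the arrays. Member probe sets whose groups did not overlap numbered 3, 4 and 8, with 1 in HDAd-gE3 against HDAd-0 and 3 in HDAd-gE3 against PBS with 1 probe set per gene, which also counts fewer members, and 3 to 7, 4 to 8 and 8 to 11 when single arrays were left out. Groups with fewer arrays overlap less easily, and the share over all probe sets was not computed for those ranges. The cause of the other moves was not tested. Of the 21 member probe sets, 14 were above the median brightness.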
